A study of Mus musculus with 6 samples.

Results

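The expression of 34 genes that mark B cells, plasma cells, T cells and natural killer (NK) cells was examined in the gastrocnemius muscle of male mice. The members were taken by gene symbol from a table of 49315 genes, and all 34 were found, each in a single row. They comprised 8 B cell genes, 7 plasma cell genes, 11 T cell genes, 6 NK and cytotoxic genes and 2 genes of leukocytes in general. All animals were C57BL6J mice that received an intramuscular injection of adeno-associated virus serotype 9 (AAV9) at 5 months of age, and muscle was collected 5 months later. One group received AAV9-HSA-CAAHR, which carries a constitutively active aryl hydrocarbon receptor (AHR), a transcription factor that here lacks its ligand binding domain and needs no ligand. The control group received AAV9-HSA-GFP, which carries a green fluorescent protein. Each transgene sat behind the HSA promoter, from the human gene of skeletal muscle actin, which drives expression in muscle fibres, so the groups share the vector and the promoter. Each group had 3 libraries, named here CAAHR replicates 31, 34 and 36 and GFP replicates 42, 43 and 46. Uninjected muscle was not analysed here, so every difference is between muscles given different vectors. A gene said to fall was lower in CAAHR than in GFP muscles, and which group had moved cannot be told from these libraries. By qPCR, the authors found that selected immune genes were not lower in CAAHR muscle than in mice given no virus. They attribute the difference to a local immune response to AAV-GFP, which was not tested here.

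B cells sense antigen through a membrane immunoglobulin that signals by the Cd79a and Cd79b chains, and they mature into plasma cells, which give up most B cell surface proteins and enlarge the secretory pathway to release antibody. T cells use a receptor that signals through the CD3 chains and the kinase Lck, with CD4 or CD8 as coreceptor. Cytotoxic T cells and NK cells kill with perforin and granzymes. Resting muscle holds few lymphocytes, and in whole muscle RNA a low count can reflect few cells or little RNA per cell, which cannot be told apart.

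Total counts ranged from 43432994 to 58825752 per library, and 1 count was worth 0.0164 to 0.0240 CPM, the count scaled to library size with TMM factors. Ahr, the gene carried by the virus, checked the labels: it was at 9.96 to 22.8 CPM in CAAHR and 1.87 to 2.55 CPM in GFP libraries (edgeR adjusted p = 0.00229). Many members were close to the limit of detection. In CAAHR muscles 19 of the 34 genes had 10 or fewer counts in every library, against 6 in GFP muscles. Members were tested with the edgeR quasi-likelihood test fitted to all genes, and p-values were adjusted over the 15847 genes that passed a filter on low counts. Of the members, 20 were tested and 14 were not. GFP replicate 43 stood apart: 31 of the 34 members were highest there among the GFP libraries, whereas it was the highest GFP library for 32.5% of all tested genes. Values of the members that results turn on are therefore given by library, and fold changes that moved most without this library are given without it too.

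Of the 20 tested members, 9 fell in CAAHR muscles at an adjusted p under 0.05 and 0 rose, against 7.60% of all tested genes called in either direction. Each of the 9 fell more than 2-fold. They were Cd79a, Cd79b, Mzb1, Pou2af1, Cd2, Cd8b1, Lck, Ptprc and Coro1a. Across all tested genes 4.57% were lower and 3.04% higher by the same test, and 2.51% were lower and changed more than 2-fold. The median log2 fold change was -2.03 for the tested members and 0.01 for all tested genes. The filter shaped these counts. Of the 20, 6 had 10 or fewer counts in every CAAHR library and had passed the filter through their GFP counts. They were Ms4a1, Pou2af1, Cd3g, Cd2, Cd8b1 and Lck. Among those 6, 4 were called, and 50.3% of all tested genes this low in CAAHR muscles were called lower. Of the other 14, 5 were called. In 22 of the 34 members every CAAHR library lay below every GFP library, in 12 the groups overlapped, and in 0 did CAAHR lie above. Over all tested genes every CAAHR library lay below every GFP library in 14.9%. That share covers tested genes only, whereas 8 of the 22 members were not tested.

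**Figure D1:**
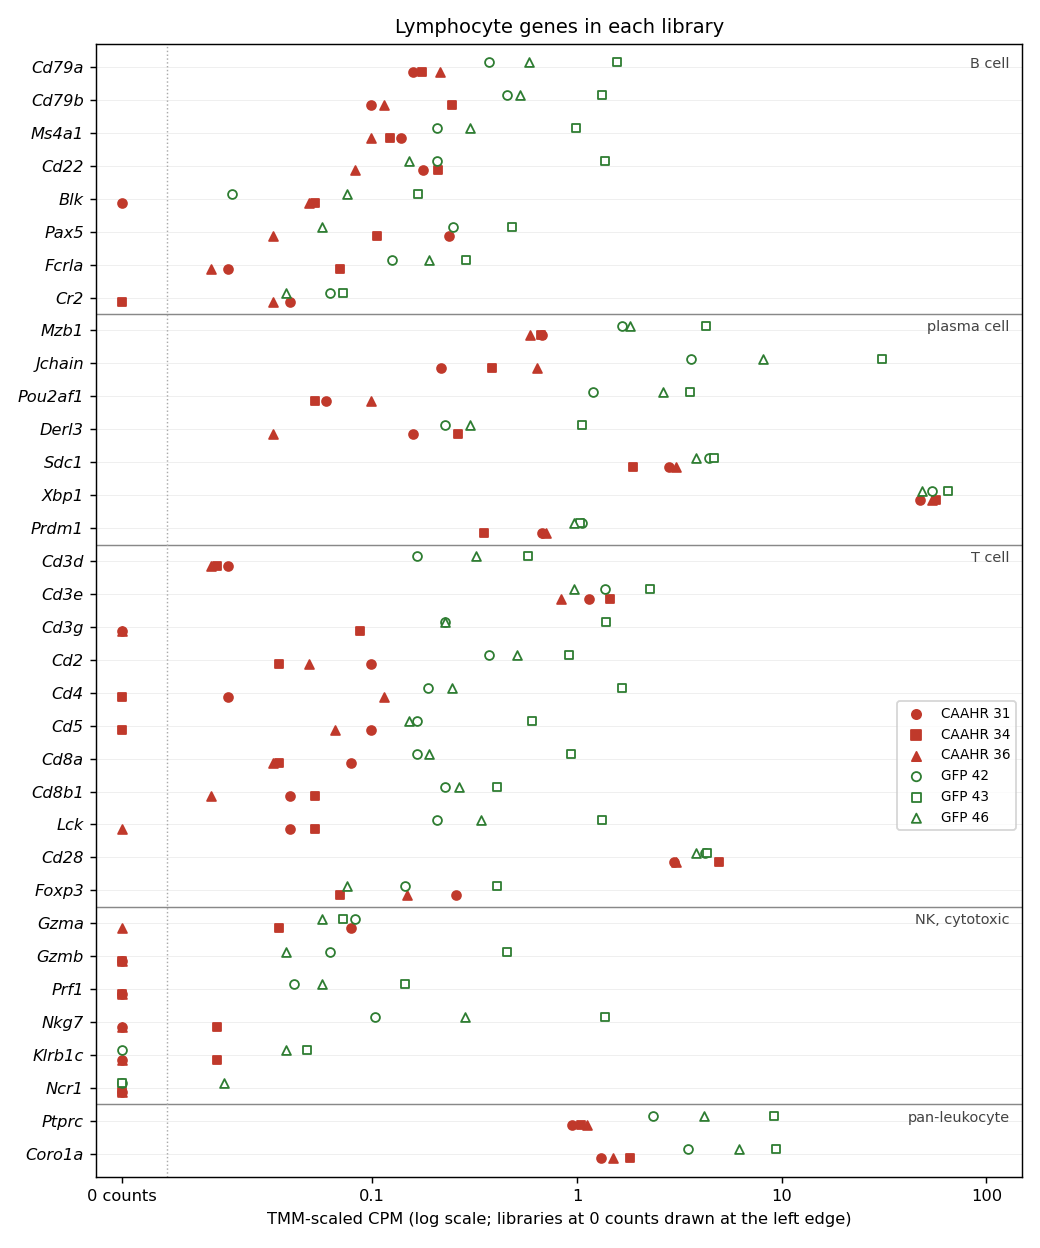
TMM-scaled CPM (log axis) of the 34 lymphocyte genes in each of 6 libraries, with CAAHR filled red and GFP open green, and libraries at 0 counts at the left edge. The groups are apart for 22 genes and overlap for 12, among them Xbp1, Cd3e, Cd28 and Foxp3, and GFP replicate 43 is the highest GFP library for 31 genes.

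Promoters of members with large differences between the group means are shown first, to place the genes in the genome and to let the sequences be read beside the values. The windows are the 250 bases before the transcription start in RefSeq annotation of GRCm38.p6, written 5′ to 3′ on the strand of the gene, and capitals mark a match to the RUNX motif TGTGGTT on either strand. Pou2af1 and Jchain had the largest fitted differences, of which that of Pou2af1 passed the test, Cd3g and Cd3d are neighbours that start in opposite directions, and Lck is the T cell receptor kinase.
Pou2af1 promoter, chr9:51213440-51213689, plus strand: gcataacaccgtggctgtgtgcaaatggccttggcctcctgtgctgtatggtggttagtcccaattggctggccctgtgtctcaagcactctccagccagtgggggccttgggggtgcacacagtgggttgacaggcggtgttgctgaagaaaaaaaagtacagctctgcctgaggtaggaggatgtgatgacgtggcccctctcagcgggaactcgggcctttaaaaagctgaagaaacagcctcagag
Jchain promoter, chr5:88527898-88528147, minus strand: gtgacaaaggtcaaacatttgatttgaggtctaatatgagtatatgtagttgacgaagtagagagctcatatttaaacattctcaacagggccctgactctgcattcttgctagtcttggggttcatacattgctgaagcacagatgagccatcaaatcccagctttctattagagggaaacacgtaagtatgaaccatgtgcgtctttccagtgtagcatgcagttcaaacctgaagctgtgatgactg
Cd3g promoter, chr9:44980432-44980681, minus strand: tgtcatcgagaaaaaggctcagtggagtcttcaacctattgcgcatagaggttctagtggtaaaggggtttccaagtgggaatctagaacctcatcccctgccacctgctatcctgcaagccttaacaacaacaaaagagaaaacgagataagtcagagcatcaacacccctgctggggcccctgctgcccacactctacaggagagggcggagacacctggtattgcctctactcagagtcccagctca
Cd3d promoter, chr9:44981536-44981785, plus strand: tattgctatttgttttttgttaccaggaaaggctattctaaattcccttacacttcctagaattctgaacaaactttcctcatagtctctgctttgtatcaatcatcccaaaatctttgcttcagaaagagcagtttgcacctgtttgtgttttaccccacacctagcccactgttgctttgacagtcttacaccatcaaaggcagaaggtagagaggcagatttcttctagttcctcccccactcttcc
Lck promoter, chr4:129573642-129573891, minus strand: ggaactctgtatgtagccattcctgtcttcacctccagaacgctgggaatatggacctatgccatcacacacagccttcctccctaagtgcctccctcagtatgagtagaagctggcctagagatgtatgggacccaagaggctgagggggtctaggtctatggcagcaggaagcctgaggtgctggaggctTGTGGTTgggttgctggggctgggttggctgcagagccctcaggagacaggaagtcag
Windows were matched for 26 of the 34 members. The RUNX motif was found in 4 of these 26 (15.4%), which were Lck, Gzma, Gzmb and Ncr1, and in 5.08% of all 27025 genes with a window. A gene with several starts was counted if any of its windows held a match. Lck has another start, whose window (chr4:129558373-129558622, not shown) held no RUNX match. The core of the AHR response element, GCGTG, was found on either strand in 6 of 26 members (23.1%) and in 30.9% of all genes. Those 6 were Cd79a, Pax5, Derl3, Sdc1, Prdm1 and Foxp3. The octamer motif ATTTGCAT was found in 0 of 26 members and 1.81% of all genes. A match describes letters in this window and is not a measured binding site. Cd79b, Ms4a1, Blk, Mzb1, Cd2, Cd4, Cd8b1 and Cd28 were not matched.

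Of 8 B cell genes, 5 were tested and 2 fell, Cd79a and Cd79b. In 4 of the 8 every CAAHR library lay below every GFP library, and in the other 4 the groups overlapped. Their summed level was 0.870, 0.980 and 0.639 CPM in CAAHR replicates 31, 34 and 36, and 1.70, 6.25 and 1.92 CPM in GFP replicates 42, 43 and 46. These sums did not overlap. The mean was 0.830 ± 0.174 CPM (SD, n = 3) in CAAHR and 3.29 ± 2.56 CPM in GFP muscles, a ratio of 3.97, which became 2.18 without GFP replicate 43. No test was made on sums, because the members were chosen with earlier results known.

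Cd79a (chromosome 7, 24897381 to 24902197, GRCm38), a signalling chain of the B cell receptor, was at 0.158, 0.175 and 0.213 CPM in CAAHR replicates 31, 34 and 36. In GFP replicates 42, 43 and 46 it was at 0.373, 1.56 and 0.585 CPM. It fell by 2.17 ± 0.55 (SE) on the log2 scale (edgeR adjusted p = 0.0460). Its partner chain Cd79b (chromosome 11, 106311341 to 106314762) was at 0.0988, 0.245 and 0.115 CPM in the CAAHR libraries and 0.456, 1.32 and 0.528 CPM in the GFP libraries. It fell by 2.29 ± 0.54 (edgeR adjusted p = 0.0341). The groups did not overlap for either chain. Both calls were lost with limma voom and when CAAHR replicate 31 or 36 or GFP replicate 43 or 46 was left out, and that of Cd79a also when CAAHR replicate 34 was. Without GFP replicate 43 the log2 fold changes were -1.38 and -1.67. Over the alternatives the adjusted p reached 0.137 for Cd79a and 0.126 for Cd79b.

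Ms4a1, which encodes the B cell surface protein CD20, was at 0.138, 0.122 and 0.0984 CPM in CAAHR replicates 31, 34 and 36 and 0.207, 0.985 and 0.302 CPM in GFP replicates 42, 43 and 46. The groups did not overlap, and the log2 fold change was -2.02 ± 0.63 (edgeR adjusted p = 0.0858). It passed with DESeq2 and without a filter on low counts, and without GFP replicate 43 the log2 fold change was -1.09. Cd22, an inhibitory B cell lectin, had 57 counts in GFP replicate 43 and between 5 and 12 in each of the other libraries, and its groups overlapped (log2 fold change -1.84 ± 0.89, edgeR adjusted p = 0.257). That value was -0.20 without GFP replicate 43. Pax5, the transcription factor that maintains B cell identity, had 12, 6 and 2 counts in the CAAHR libraries and 12, 20 and 3 in the GFP libraries. Its log2 fold change was -1.05 ± 0.81 (edgeR adjusted p = 0.483), and -0.30 without GFP replicate 43. The other B cell genes were not tested. Fcrla had 1 to 4 counts in each CAAHR library and 6 to 12 in each GFP library, and the groups did not overlap. Blk, a B cell kinase, and Cr2, a complement receptor, had 0 to 3 and 0 to 2 counts in the CAAHR libraries and 1 to 7 and 2 to 3 counts in the GFP libraries.

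The plasma cell genes split into members with a steep difference between the groups and members at closer levels. Xbp1, a transcription factor of the secretory pathway that many cells express, made up 91.1% to 94.0% of the class counts in CAAHR libraries and 58.8% to 81.6% in GFP libraries. The full sum of 7 genes was 57.3 ± 4.79 CPM in CAAHR and 81.0 ± 25.7 CPM in GFP muscles, a ratio of 1.41. Without Xbp1, Sdc1 and Prdm1, which are expressed by other cells too, the 4 remaining genes summed to 1.11, 1.36 and 1.36 CPM in CAAHR replicates 31, 34 and 36. In GFP replicates 42, 43 and 46 they summed to 6.69, 39.9 and 12.9 CPM. The ratio of these sums was 15.5, or 7.65 without GFP replicate 43.

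Pou2af1 (chromosome 9, 51213708 to 51240080), a coactivator of octamer-binding factors in B and plasma cells, had the lowest p-value of the members. It had 3, 3 and 6 counts in CAAHR replicates 31, 34 and 36 and 58, 148 and 140 counts in GFP replicates 42, 43 and 46. These corresponded to 0.0700 ± 0.0248 CPM and 2.47 ± 1.19 CPM, and the gene fell by 5.07 ± 0.51 on the log2 scale (edgeR adjusted p = 8.70e-04). Jchain (chromosome 5, 88519809 to 88527891), which joins secreted immunoglobulin A and M into polymers, had 11, 22 and 39 counts in the CAAHR libraries and 174, 1292 and 429 in the GFP libraries. Its fitted change was as large, at -5.06 ± 1.10, and its groups did not overlap. With GFP libraries that differed among themselves by this much, it did not pass (edgeR adjusted p = 0.0638). It passed without GFP replicate 43, where the log2 fold change was -3.79, without GFP replicate 42, where it was -5.52, with DESeq2 and in edgeR without robust estimation, and the adjusted p over the alternatives ran from 4.35e-06 to 0.2002.

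Mzb1 (chromosome 18, 35647267 to 35649367), an endoplasmic reticulum chaperone for antibody assembly, was at 0.672, 0.665 and 0.590 CPM in the CAAHR libraries and 1.66, 4.25 and 1.81 CPM in the GFP libraries. It fell by 1.99 ± 0.38 (edgeR adjusted p = 0.0155), and the call was lost when CAAHR replicate 31 or 36 was left out. Exons of the gene SPATA24 on the same strand cover 57.2% of its exon bases, so its counts carry uncertainty. Derl3, a factor that removes misfolded proteins from the endoplasmic reticulum, overlapped between groups, with 8, 15 and 2 counts in the CAAHR libraries and 11, 44 and 16 in the GFP libraries (log2 fold change -1.78 ± 0.77, edgeR adjusted p = 0.204). Leaving out GFP replicate 43 gave -0.82.

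The broadly expressed members differed less. Sdc1, the plasma cell surface proteoglycan CD138 that epithelial and other cells also carry, was at 2.81, 1.89 and 3.03 CPM in CAAHR replicates 31, 34 and 36 and 4.43, 4.66 and 3.83 CPM in GFP replicates 42, 43 and 46. Its groups did not overlap, and its log2 fold change was -0.74 ± 0.20 (edgeR adjusted p = 0.0552). It passed with upper quartile scaling, with limma voom, with DESeq2 and without a filter on low counts. Prdm1, the factor Blimp-1 that drives plasma cell differentiation, was at 0.672, 0.350 and 0.705 CPM in the CAAHR libraries and 1.06, 1.03 and 0.962 CPM in the GFP libraries, also without overlap (log2 fold change -0.82 ± 0.32, edgeR adjusted p = 0.156). Xbp1 was at 47.2, 56.9 and 54.5 CPM against 54.1, 65.0 and 48.4 CPM, a difference smaller than the spread between replicates (log2 fold change -0.08 ± 0.12, edgeR adjusted p = 0.759). Its sign changed to 0.0013 with library size only and to 0.0432 without GFP replicate 43.

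**Figure D2:**
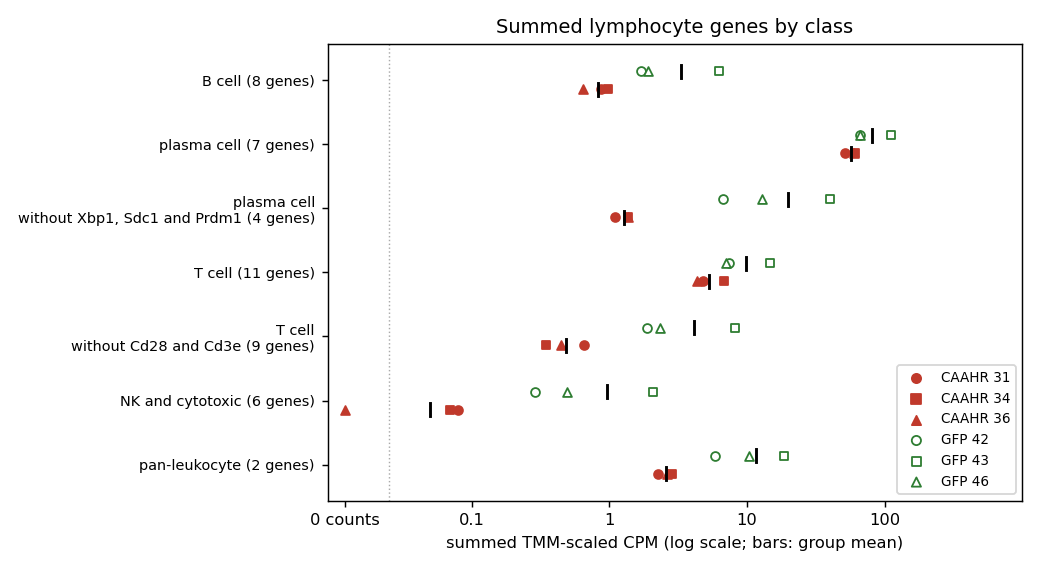
Summed TMM-scaled CPM (log axis) of each class of lymphocyte genes in each library, with group means as black bars. The GFP mean exceeds the CAAHR mean 1.41-fold for all 7 plasma cell genes and 15.5-fold without Xbp1, Sdc1 and Prdm1. It exceeds it 1.85-fold for all 11 T cell genes and 8.58-fold without Cd28 and Cd3e, a choice made after seeing the data. Without GFP replicate 43 the ratios of the reduced sums are 7.65 for plasma cell and 4.35 for T cell genes.

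The T cell genes showed a similar split. Cd28 and Cd3e overlapped between the groups and had 50 or more counts in every library, and the other T cell genes had 13 or fewer counts in every CAAHR library. The full sum of 11 genes was 5.28 ± 1.29 CPM in CAAHR and 9.78 ± 4.35 CPM in GFP muscles, a ratio of 1.85. Cd28 alone made up 62.2% to 73.3% of these counts in CAAHR libraries. Without Cd28 and Cd3e, a choice made after seeing the data, the 9 other genes summed to 0.652, 0.350 and 0.443 CPM in CAAHR replicates 31, 34 and 36 and to 1.86, 8.22 and 2.32 CPM in GFP replicates 42, 43 and 46. The ratio was then 8.58, or 4.35 without GFP replicate 43.

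The CD3 chains lie together on chromosome 9, with Cd3g (44969572 to 44980431, minus strand), Cd3d (44981786 to 44987339, plus strand) and Cd3e (44998740 to 45009627, minus strand) within 40056 bases. The starts of Cd3g and Cd3d are 1355 bases apart. Cd3d had 1 count in each CAAHR library and 8, 24 and 17 counts in GFP replicates 42, 43 and 46. It was not tested, and its GFP to CAAHR ratio was 19.3, with a 95% exact interval from 6.22 to 96.7 that covers counting error only. Cd3g had 0, 5 and 0 counts in CAAHR replicates 31, 34 and 36 and 11, 58 and 12 counts in the GFP libraries. The log2 fold change of Cd3g was -4.24 ± 1.21 (edgeR adjusted p = 0.0762), and it passed with limma voom and without a filter on low counts. Without GFP replicate 43 the value for Cd3g was -2.85, and the ratio for Cd3d was 13.9 (4.24 to 71.9). Cd3e had 58, 83 and 51 counts in the CAAHR libraries and 66, 95 and 51 counts in the GFP libraries (log2 fold change -0.42 ± 0.35, edgeR adjusted p = 0.516). Per kilobase of exon, the mean level of Cd3e was 1.93 times that of Cd3d in GFP muscles and 28.5 times that of Cd3d in CAAHR muscles. The CAAHR value rests on 1 count of Cd3d in each library and is uncertain. An antisense gene, Gm48719, overlaps 3.31% of the exon bases of Cd3e.

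**Figure D3:**
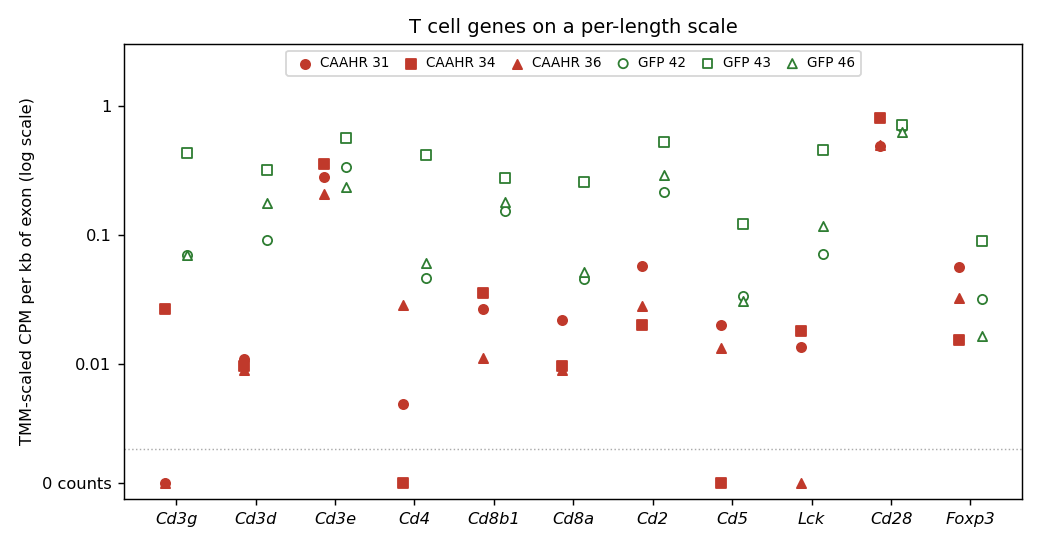
TMM-scaled CPM per kb of exon (log axis) of the 11 T cell genes in each library, which makes levels comparable between genes. Cd3g and Cd3d are both near the floor in CAAHR libraries, at 0, 5 and 0 counts and at 1 count in each. The groups overlap for Cd3e, Cd28 and Foxp3.

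Cd2 (chromosome 3, 101275899 to 101287939), an adhesion receptor of T and NK cells, had 5, 2 and 3 counts in CAAHR replicates 31, 34 and 36 and 18, 38 and 27 counts in GFP replicates 42, 43 and 46. It fell by 3.26 ± 0.55 on the log2 scale (edgeR adjusted p = 0.00844). Lck (chromosome 4, 129548344 to 129573641) had 2, 3 and 0 counts in the CAAHR libraries and 10, 55 and 18 counts in the GFP libraries. It fell by 4.25 ± 0.99 (edgeR adjusted p = 0.0373), and the call was lost when CAAHR replicate 31 or 36 or GFP replicate 43 was left out. Without GFP replicate 43 the log2 fold change was -3.11, and without GFP replicate 46 Lck was not tested. The groups did not overlap for either gene.

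The CD8 chains, which lie 35932 bases apart on chromosome 6, were both low in CAAHR muscles. Cd8b1 (71322788 to 71337494) had 2, 3 and 1 counts in the CAAHR libraries and 11, 17 and 14 counts in the GFP libraries. It fell by 2.98 ± 0.58 (edgeR adjusted p = 0.0151), and lost its call with the same 3 libraries left out. Cd8a (71373427 to 71379173) had 4, 2 and 2 counts in the CAAHR libraries and 8, 39 and 10 counts in the GFP libraries, and was not tested. Cd4, the coreceptor of helper T cells, was not tested either and had 1, 0 and 7 counts in the CAAHR libraries and 9, 69 and 13 in the GFP libraries. For Cd4, Cd8a and Cd8b1 alike the highest count was in GFP replicate 43 and the groups did not overlap. Cd5, a T cell inhibitory receptor, had 5, 0 and 4 counts against 8, 25 and 8 counts.

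Cd28, a costimulatory receptor of T cells, had 150, 283 and 186 counts in the CAAHR libraries and 203, 179 and 202 counts in the GFP libraries. Its log2 fold change was -0.17 ± 0.21 (edgeR adjusted p = 0.701). Foxp3, the transcription factor of regulatory T cells, had 13, 4 and 9 counts against 7, 17 and 4 counts, and its groups overlapped. Exons of 4 other genes overlap those of Foxp3, and Flicr on the same strand covers 18.6% of them.

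The NK and cytotoxic genes were the lowest of the classes, and none of the 6 was tested. All 6 together had 4, 4 and 0 counts in CAAHR replicates 31, 34 and 36 and 14, 87 and 26 counts in GFP replicates 42, 43 and 46. On the CPM scale the ratio of the group means was 19.3, and 7.86 without GFP replicate 43. Nkg7, a cytotoxic granule protein (chromosome 7, 43437073 to 43438249), had 0, 1 and 0 counts in the CAAHR libraries and 5, 57 and 15 counts in the GFP libraries. The ratio of group totals was 90.9, with a 95% exact interval from 15.8 to 3638 for counting error, and 33.3 (5.33 to 1381) without GFP replicate 43. Gzmb, a granzyme, had 0 counts in each CAAHR library and 3, 19 and 2 counts in the GFP libraries. With a floor of 3 counts over the group it was at least 9.45-fold lower in CAAHR muscles, a bound that rests on GFP replicate 43 and was 2.78-fold without it. Prf1, the pore-forming perforin, had 0 counts in each CAAHR library and 2, 6 and 3 counts in the GFP libraries, and was at least 4.33-fold lower, or at least 2.78-fold without GFP replicate 43. For these 3 genes the groups did not overlap.

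The remaining cytotoxic genes gave no separation at this depth. Gzma had 4, 2 and 0 counts in the CAAHR libraries and 4, 3 and 3 counts in the GFP libraries. The NK receptor genes were almost absent from both groups: Klrb1c (NK1.1) had 1 count over all CAAHR libraries and 4 over all GFP libraries, and Ncr1 (NKp46) had 0 and 1. Nkg7, Gzmb and Prf1 are shared by cytotoxic T cells, whereas Ncr1 marks NK cells more narrowly. Klrb1c belongs to a family of similar receptors, and 13.9% of its exon bases overlap another gene.

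The pan-leukocyte members were abundant enough to compare without reaching the floor. Ptprc (chromosome 1, 138062861 to 138175708), which encodes the leukocyte phosphatase CD45, was at 0.949, 1.05 and 1.11 CPM in CAAHR replicates 31, 34 and 36. In GFP replicates 42, 43 and 46 it was at 2.36, 9.18 and 4.19 CPM. It fell by 2.33 ± 0.48 on the log2 scale (edgeR adjusted p = 0.0317). Coro1a (chromosome 7, 126699773 to 126707787), an actin regulator of leukocytes, was at 1.30, 1.82 and 1.49 CPM in the CAAHR libraries and 3.50, 9.37 and 6.21 CPM in the GFP libraries. It fell by 2.04 ± 0.34 (edgeR adjusted p = 0.0116). The 3 CAAHR values of each gene lay close together, and the GFP values ran in the order 42, 46, 43 for both. The call for Ptprc was lost with limma voom and when CAAHR replicate 31, 34 or 36 or GFP replicate 46 was left out, and that for Coro1a when CAAHR replicate 31 or 36 was. Without GFP replicate 43 the log2 fold change was -1.66 for each, and both passed.

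**Figure D4:**
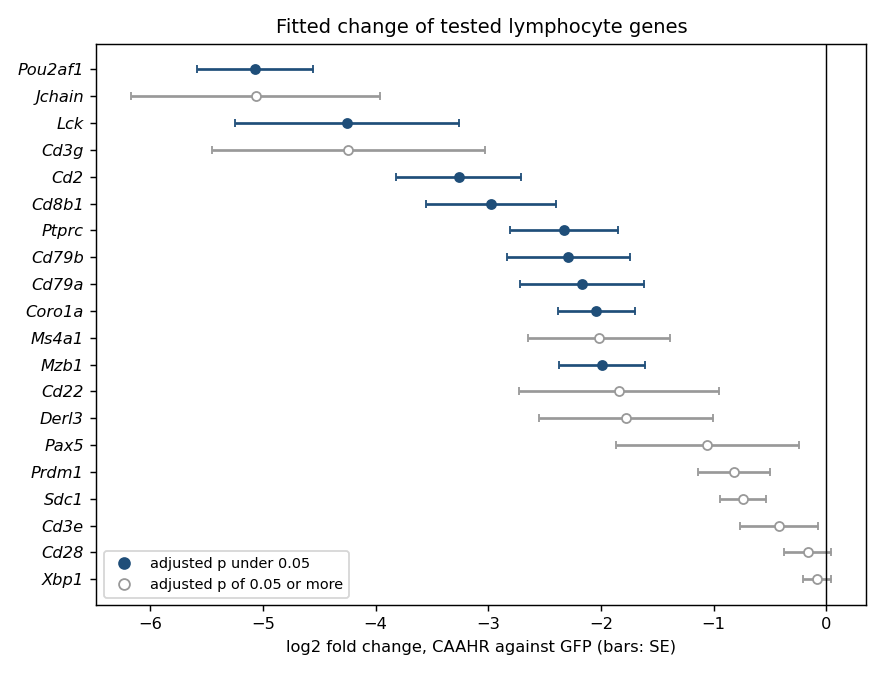
Fitted log2 fold change (CAAHR against GFP) with its SE for the 20 tested lymphocyte genes, with filled points where the edgeR adjusted p was under 0.05. All 20 fitted changes are below 0, from -5.07 for Pou2af1 to -0.08 for Xbp1, and 9 are filled.

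The calls depended on which libraries entered. With 1 library left out the number of members called lower ranged from 3 to 12. It was 3 without CAAHR replicate 31, 3 without CAAHR replicate 36 and 5 without GFP replicate 46, and 6 without GFP replicate 43. Pou2af1 and Cd2 were the 2 members called in all 6 of these fits. Both had 10 or fewer counts in every CAAHR library, and 50.3% of all tested genes this low there were called lower with all libraries. Cd3d, not tested with all libraries, was tested and called lower without CAAHR replicate 31, 34 or 36 and without GFP replicate 42. With 1 count in each CAAHR library, Cd3d passed the filter in these fits through its GFP counts, so these calls are no further support. The adjusted p of Pou2af1 and Cd2 over all alternatives in which they were tested stayed at or below 0.0156 and 0.0408. Without a filter on low counts, 22 of 34 members were called lower, including 8 of the 14 otherwise not tested: Fcrla, Cd3d, Cd4, Cd5, Cd8a, Gzmb, Prf1 and Nkg7. The share of all genes called lower in that fit was 5.06%.

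**Figure D5:**
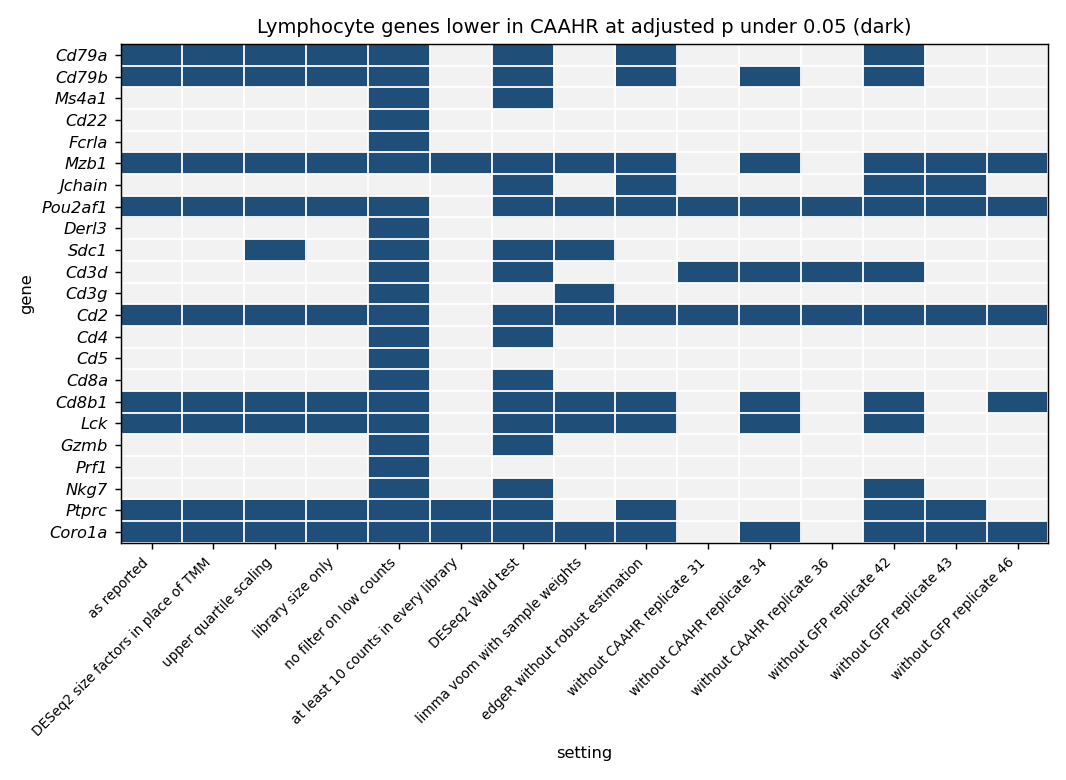
Lymphocyte genes (rows) called lower in CAAHR muscles at an adjusted p under 0.05 (dark) under the reported fit and each alternative (columns), with light cells for genes not called or not tested. Pou2af1 and Cd2 are dark in all 6 fits that leave out 1 library, and 22 genes are dark without a filter on low counts. Pou2af1 and Cd2 had 10 or fewer counts in every CAAHR library.

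Between genes, levels can be set side by side only per length. In CPM per kb of exon, the highest member in GFP muscles was Xbp1 at 17.2 ± 2.60, followed by Jchain at 5.66 ± 5.85, Coro1a at 2.29 ± 1.06, Mzb1 at 2.12 ± 1.20, Sdc1 at 1.13 ± 0.112 and Pou2af1 at 0.968 ± 0.466. Neighbours in this order from Jchain to Pou2af1 lay within 1 SD of each other. Mzb1 shares 57.2% of its exon bases with SPATA24, so its level per length and its place in either group are uncertain. In CAAHR muscles Xbp1 was again the highest, at 16.3 ± 1.56. There Sdc1 at 0.676 ± 0.159, Cd28 at 0.597 ± 0.183, Coro1a at 0.553 ± 0.0936 and Mzb1 at 0.529 ± 0.0372 followed within their spread of one another, and Jchain was at 0.164 ± 0.0844.

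Related genes of the same pathways were taken from lists, and their counts stand beside the 4.57% of all tested genes called lower. Of the genes named from these lists, Ikzf3, Il6, Il2rb, Ccl5 and Ccr7 had 10 or fewer counts in every CAAHR library and passed the filter through their GFP counts, where 50.3% of all such genes were called lower. Of 12 genes of B cell receptor signalling, 11 were tested and 4 fell: the adaptor Blnk (log2 fold change -1.91 ± 0.35), the phosphatase Ptpn6 (-1.72 ± 0.37), the kinase Syk (-1.12 ± 0.27) and the adaptor Pik3ap1 (-2.00 ± 0.50). Myeloid cells express these genes too. Of 10 B cell transcription factors, 8 were tested and Ikzf3 fell (-3.55 ± 0.72). Of 10 genes of B and plasma cell survival, 5 were tested and 2 fell. They were the cytokine Il6 (-3.45 ± 0.40) and the receptor Tnfrsf13b (-1.89 ± 0.40). Tnfsf13b, the survival factor BAFF, was at 0.403 ± 0.0973 against 0.633 ± 0.0762 CPM (edgeR adjusted p = 0.260).

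Against the same 4.57%, of 12 T cell receptor signalling genes 5 were tested and the adaptor Lcp2 fell (-2.05 ± 0.45). The constant regions Trac, Trbc1 and Trbc2 were too low to be tested. In 10 of the 12, every CAAHR library lay below every GFP library, as in 14.9% of all tested genes. That share leaves out genes too low to be tested, whereas the 12 include such genes. Of 14 T cell state genes, 11 were tested, of which Cd27 (-2.29 ± 0.30) and Il2rb (-4.12 ± 0.87) fell. Of 12 further cytotoxic genes, 3 were tested and the chemokine Ccl5 fell (-4.52 ± 1.06). Gzmm, a granzyme by sequence, was at 7.85 ± 1.31 against 6.77 ± 0.187 CPM, with overlap between groups. Of 15 homing genes, 11 were tested and 4 fell: Ccr7 (-3.78 ± 0.56), the receptor that guides lymphocytes to lymph nodes, the interferon-induced chemokines Cxcl9 (-3.93 ± 0.54) and Cxcl10 (-2.41 ± 0.46), and Cxcr4 (-0.94 ± 0.23).

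Some markers of other cells also differed between the groups, and their part in the results was not tested. Of all tested genes 4.57% were called lower, and 12.6% were lower at an unadjusted p under 0.05. Of 14 further pan-leukocyte genes, all 14 were tested and 9 fell, with the lowest p for Rac2 (-2.65 ± 0.38) and Cytip (-2.89 ± 0.46). Their sum was 13.2 to 16.2 CPM in CAAHR and 27.5 to 65.6 CPM in GFP libraries. Of 10 macrophage markers, 9 were tested and 0 were called, with 7 lower at an unadjusted p under 0.05, and their sum was 27.0 to 46.2 against 54.2 to 119 CPM. Of 7 neutrophil markers, 6 were tested and 5 fell, with the lowest p for S100a8 (-2.35 ± 0.31) and a sum of 2.95 to 3.81 against 8.64 to 19.5 CPM. Of 7 dendritic cell markers, Itgax fell (-2.78 ± 0.62) among 6 tested, with a sum of 6.72 to 8.87 against 9.44 to 11.9 CPM. Of 6 mast cell markers, 0 of 5 tested were called, with 3 lower at an unadjusted p under 0.05, and the sum was 2.54 to 2.68 against 2.69 to 6.36 CPM.

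A lymph node lies behind the knee near this muscle. Of 8 genes of lymph node stroma and follicles, Glycam1, Madcam1 and Ccl21a were at 0 counts in all 6 libraries. The symbol Ccl21a occurs in 2 rows and only unique reads were counted, so its 0 counts may understate it. Fcer2a of this list had 9, 5 and 4 counts in the CAAHR libraries and 4, 7 and 4 in the GFP libraries. Of the 2 genes of the list that were tested, Clu fell (-0.97 ± 0.15). The other, Cxcl13, was at 0.218 ± 0.108 against 1.07 ± 0.827 CPM (edgeR adjusted p = 0.0554). The sum of the list, most of it Clu, was 18.8 to 27.6 against 40.1 to 49.1 CPM. Of 7 adipocyte markers, Retn (-2.43 ± 0.43), Cfd (-3.05 ± 0.59) and Plin1 (-2.77 ± 0.58) fell. The adipocyte sum was 1575 to 2019.9 against 1355 to 1555 CPM and was nearly all Car3, which muscle also expresses. Of 6 endothelial and 5 fibroblast markers 0 were called by edgeR, with 1 endothelial and 0 fibroblast markers lower at an unadjusted p under 0.05, and the sums overlapped between groups (163 to 238 against 169.9 to 221 CPM, and 280.3 to 516 against 402 to 495 CPM). Of 7 muscle fibre genes, Acta1 (-0.74 ± 0.13), Ckm (-0.73 ± 0.16) and Tnnt3 (-0.69 ± 0.15) fell, and the sum did not overlap between groups (121646 to 170154 against 201901 to 204861 CPM).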

How the data were processed

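The data were whole-number counts per gene for 6 libraries, 3 per group, grouped by their titles. As the authors describe, paired-end reads of poly(A) RNA went through Trimmomatic 0.36 and STAR 2.5.2b (mouse GRCm38), and featureCounts assigned unique exon reads to genes. The authors deposited these counts without normalisation, and strandedness was not stated. The main test was that of edgeR 4.0.16 in R 4.3.3 (filterByExpr, TMM scaling, robust quasi-likelihood F test, Benjamini-Hochberg adjustment over 15847 tested genes, threshold 0.05). Standard errors came from the F statistic. Alternatives used limma 3.58.1 voom, DESeq2 1.42.0 (the authors' tool), other scalings and filters, and leaving out each library. The 34 members and all lists were chosen with earlier results of these data known. All members are named, and up to 4 genes of each other list, those with the smallest p. A few genes were singled out after their values were seen (Trac, Trbc1, Trbc2, Glycam1, Madcam1, Ccl21a, Fcer2a). Some listed genes are not reported here. Positions, exon lengths and overlaps came from GENCODE M21 on GRCm38, and promoters from RefSeq. No 2 libraries of a group agreed within counting noise (lowest chi-square over df 23.7). The labels do not say that libraries of a group came from separate mice, so p-values measure the spread between these libraries, which may be technical. The calculations were tested on simulated data.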

Additional observations from a re-analysis of the deposited data

How the results depend on the processing

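No paired analysis was possible because CAAHR and GFP libraries have no number in common. The number of lymphocyte genes called lower, 9 as reported, became 22 with every gene tested, 3 with at least 10 counts in every library (where 9 of the members were tested) and 17 with DESeq2, and it ranged from 3 to 12 with 1 library left out. Those also changed over 2-fold, 9 as reported, numbered 21, 3 and 16 under the same alternatives and from 3 to 12 with 1 library left out. All 9 reported calls were among the 22 and the 17, and 6 were among the 8 with limma voom. Of all genes, 1205 were called as reported, 2470 with every gene tested, 1921 with DESeq2, and between 530 and 1727 with 1 library left out. Of these calls 60.1% were lower with TMM, 73.4% with upper quartile scaling and 40.6% with library size only. The same 9 members were called lower with each, and Sdc1 as well with upper quartile scaling. The cause was not tested. On the log2 scale the difference between the groups in the plasma cell sum, -0.50 as reported, was -2.50 without Xbp1 and -3.96 without Xbp1, Sdc1 and Prdm1. That in the T cell sum, -0.89, was -1.80 without Cd28 and -3.10 without Cd28 and Cd3e, the last chosen after seeing the data, as was giving the bounds and ratios of the lowest genes without GFP replicate 43. These follow from leaving out the most abundant members. Without GFP replicate 43 the B cell sum moved from -1.99 to -1.13 and the NK and cytotoxic sum from -4.27 to -2.97. Xbp1 (-0.08) reversed to 0.0013 with library size only, and with 1 library left out it ran from -0.17 to 0.0432, the latter without GFP replicate 43. Of 266 checks of single members, 224 kept direction and call, 26 lost a call, 14 gained one and 2 reversed.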

Other observations

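The GFP libraries did not rank the same way for every immune list. The B cell, plasma cell, T cell, NK and pan-leukocyte sums were highest in GFP replicate 43, as was the macrophage sum (119 CPM, against 75.9 CPM in replicate 46 and 54.2 CPM in replicate 42). The neutrophil sum was highest in GFP replicate 46, at 19.5 CPM, against 11.3 CPM in replicate 43 and 8.64 CPM in replicate 42. The mast cell sum was also highest in replicate 46, at 6.36 CPM, and lowest in replicate 43, at 2.69 CPM. These orders come from single libraries and were not tested.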
